A study of Caenorhabditis briggsae with 6 samples.

Results

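The 43 genes described here carry symbols of the translation machinery of the nematode Caenorhabditis briggsae: 19 of cytosolic ribosomal proteins, 12 of translation initiation factors and 12 of aminoacyl-tRNA synthetases. They were chosen by symbol, out of 23169 genes in the count table, from the published lists of genes that changed in at least 1 of 3 multivulva (Muv) mutants. Every symbol that the incomplete copies of these lists held was taken for the families Cbr-rpl, Cbr-rps, Cbr-rla, Cbr-eif, Cbr-eef, Cbr-iff, Cbr-ife, Cbr-ifg and the synthetases, and Cbr-egl-45. A gene is therefore among them because a mutant changed it. For 38 of the 43 that mutant was Cbr-ivph-3(sy5216), the same mutant as in these libraries, with 37 listed as lower and 1, Cbr-ife-1, as higher. A figure legend of the paper describes the sy5216 genes by a cut-off on the size of the fold change. Most members fell short of that cut-off in the main fit described below. Of those listed as lower, only Cbr-egl-45 and Cbr-eif-3.D reached it, with log2 fold changes of -1.26 and -1.13. Cbr-ife-1, at 0.88, did not reach it. The reason for this gap was not tested. The other 5 of the 43 stood in the list of genes changed in Cbr-spr-4(gu163) alone. That list leaves out genes called in sy5216, so these 5 too were chosen on this contrast. All fold changes below are accordingly descriptions, and no p-value is given for a member.

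Whole hermaphrodites of AF16, the wild-type strain, were compared with whole hermaphrodites of PS9217, which carries Cbr-ivph-3(sy5216), an allele with a premature stop codon in a gene of the LIN-15B-domain family. Both genotypes were synchronized by bleaching, grown at 20 °C on E. coli OP50 and collected at the L3 larval stage, when vulval precursor cells began to divide, in 3 independent biological replicates each. The mutant is 1 strain with 1 allele. In RNA from whole animals, fewer cells of a type and less RNA per cell cannot be told apart.

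Ribosomes are built from a small subunit, which decodes mRNA, and a large subunit, which joins amino acids. The initiation factor eIF2 delivers the initiator tRNA to the small subunit, eIF3 is a scaffold of many subunits that holds the small subunit ready for the mRNA, and eIF4E binds the mRNA cap. Aminoacyl-tRNA synthetases load each tRNA with its amino acid, with separate enzymes for the cytosol and the mitochondrion in most cases. Transcripts of ribosomal proteins are among the most abundant in growing animals. In C. elegans much of the translation machinery is used in the germ line and in growing larval tissues.

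The libraries held 22817581 to 30865944 counted read pairs. Levels are given as CPM, edgeR's counts relative to library size, after TMM scaling, which corrects library sizes for differences in composition. Its factors lay between 0.870 and 0.913 for wild-type and between 1.02 and 1.17 for mutant libraries. Of 14241 genes tested with edgeR's quasi-likelihood test, 11.7% were higher and 9.80% lower in the mutant at an adjusted p under 0.05, and the median log2 fold change (mutant relative to wild type) was 0.06. Mutant replicate 1 stood apart from mutant replicates 2 and 3, since leaving it out raised the genes called from 3062 to 8644, so log2 fold changes without it are given as well. All 43 members passed the filter on low counts, and the lowest count of any of them in any library was 262. Levels are not compared between genes, because transcript lengths were not used here.

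Nearly all members were less abundant in the mutant. The log2 fold change was negative for 42 of the 43 genes and lay between -1.26 and -0.13 for these, with a median over all 43 of -0.52 against 0.06 over all tested genes. Cbr-ife-1 was the exception at 0.88. Under scaling by library totals the median of the members was -0.21 and that of all genes 0.37, 39 members were negative, and Cbr-rpl-24.2, Cbr-eif-2alpha and Cbr-ears-2 turned to 0.0024, 0.043 and 0.19. The distance between the medians of members and all genes was -0.58 with TMM and -0.69 to -0.51 over 14 alternative settings. Relative to the median gene, 42 of 43 members were lower with TMM and also with library totals.

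Of the 43 members, 22 were called lower, against 9.80% of all tested genes, and 1 was called higher, against 11.7%. All 3 mutant libraries lay below all 3 wild-type libraries for 39 members, where 20.1% of all tested genes showed this, and above them for Cbr-ife-1, where 22.2% of all genes did. The genotypes overlapped for Cbr-rpl-11.1, Cbr-lars-2 and Cbr-ears-2, as they did for 57.7% of all tested genes. Since the members were picked for being called in this contrast, nothing is read from these counts. With library totals the members with no overlap and lower levels numbered 23, against 9.66% of all genes, and 19 overlapped. These 19 were the 3 above, Cbr-rpl-31, Cbr-rpl-20, Cbr-rpl-1, Cbr-rpl-25.1, Cbr-rpl-24.2, Cbr-rps-13, Cbr-rps-18, Cbr-eif-2beta, Cbr-eif-2alpha, Cbr-eif-2A, Cbr-eif-3.H, Cbr-aars-2, Cbr-gars-1, Cbr-tars-1, Cbr-vars-1 and Cbr-iars-2. For single genes below, overlap is described with TMM-scaled levels.

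The number of members called lower depended strongly on the settings. It was 14 with upper-quartile scaling, 5 with library totals, 37 with DESeq2 and 9 with a replicate block, against 7.53%, 4.54%, 12.1% and 7.72% of all genes in those fits. Without wild-type replicate 1, 2 or 3 it was 1, 2 and 1, against 4.33%, 4.88% and 4.27%. Without mutant replicate 2 or 3 it was 1 and 2, against 4.87% and 4.76%, and without mutant replicate 1 it was 40, against 28.6%. Over these 6 fits with a library left out, the median log2 fold change of the members stayed between -0.61 and -0.48. Cbr-ife-1 was called higher in 11 of the 15 settings, and the exceptions were the fits that left out wild-type replicate 1, wild-type replicate 3, mutant replicate 2 and mutant replicate 3.

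**Figure D1:**
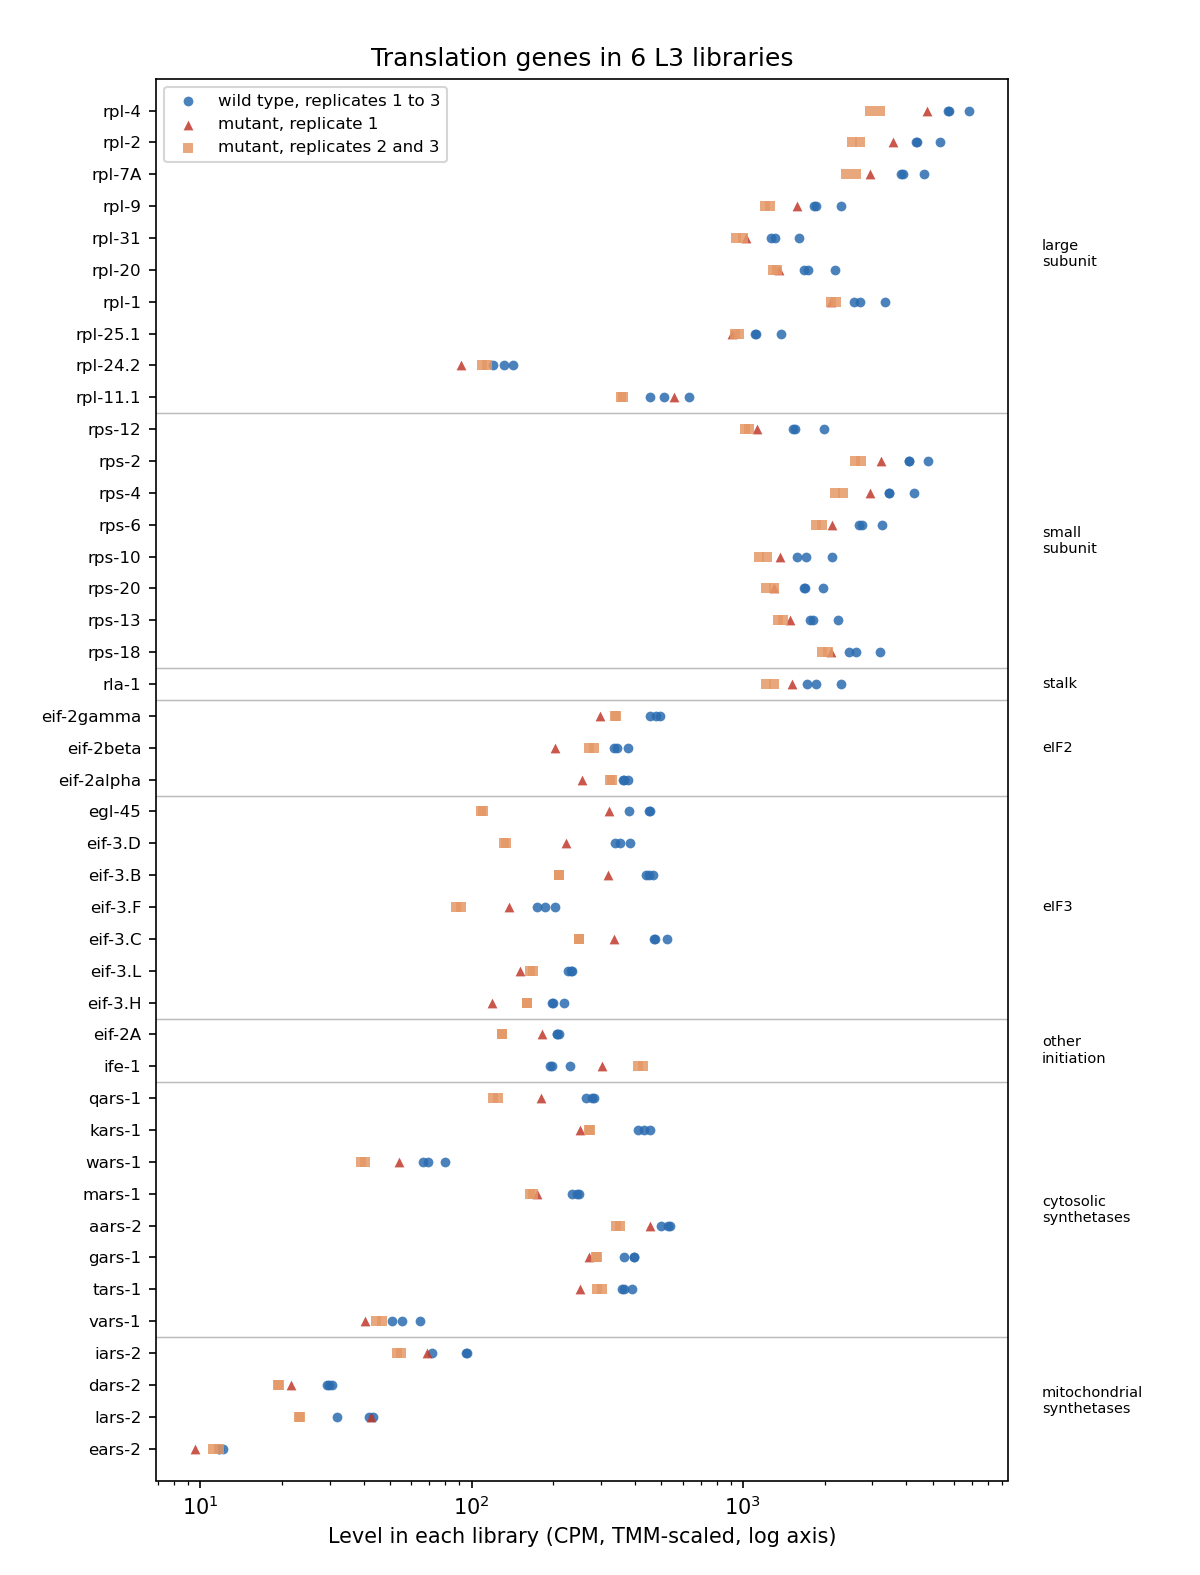
Level of each of the 43 genes in each of the 6 libraries, in TMM-scaled CPM on a log axis, with wild type as circles, mutant replicate 1 as triangles and mutant replicates 2 and 3 as squares; genes are grouped by role. The circles lie to the right of the other symbols for 39 genes and to the left of them for Cbr-ife-1.

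Summed over the 19 ribosomal protein genes, the level in the mutant was 67.4% of that in wild type. The sum was 43860.0, 54513 and 44883 CPM in wild-type replicates 1, 2 and 3, a mean of 47752 ± 5877 (SD, n = 3). In mutant replicates 1, 2 and 3 it was 36149.8, 29349 and 31094 CPM, a mean of 32198 ± 3532 (SD, n = 3). Wild-type replicate 2 was the highest library and the genotypes did not overlap. As a share of all counted pairs, with no TMM scaling, the same genes took 4.005%, 4.74% and 4.08% in wild type and 3.67%, 3.45% and 3.60% in the mutant, so that the mutant stood at 83.5% of wild type. The order of the genotypes was thus the same with either denominator, and the gap between them was smaller by share of counts.

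Within the ribosome, the large and small subunits had similar values. The 10 large-subunit genes had a median log2 fold change of -0.50, from -0.74 to -0.32, and a summed level in the mutant of 66.3% of wild type. The 8 small-subunit genes had a median of -0.54, from -0.67 to -0.43, and a summed level of 68.6% of wild type. Without mutant replicate 1 these medians were -0.55 and -0.61. In each subunit 5 genes were called lower, against 9.80% of all tested genes. The sums are weighted towards the genes with the most counts.

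Cbr-rpl-4 (WBGene00040839), which encodes a core protein of the large subunit, had the largest difference of the ribosomal protein genes. Its level was 5735, 6823 and 5713 CPM in wild-type replicates 1, 2 and 3 and 4783, 2942 and 3196 CPM in mutant replicates 1, 2 and 3, a log2 fold change of -0.74 (standard error 0.21), or -0.997 without mutant replicate 1. All mutant libraries were below all wild-type ones, and mutant replicate 1 was the closest to wild type. Within the large subunit Cbr-rpl-2 and Cbr-rpl-7A, also core proteins, followed with -0.67 and -0.64, or -0.84 and -0.73 without mutant replicate 1. For Cbr-rpl-9, Cbr-rpl-31, Cbr-rpl-20, Cbr-rpl-1 and Cbr-rpl-25.1 the log2 fold changes were -0.56, -0.50, -0.50, -0.42 and -0.36. Of these 5 genes, Cbr-rpl-31 and Cbr-rpl-20 were called lower.

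The remaining pair of large-subunit genes was named for Cbr-spr-4(gu163) only. Cbr-rpl-11.1 (WBGene00024572) encodes the protein that helps to hold the ribosomal RNA of the central protuberance, and it was in the list of genes higher in gu163. Here it was at 453, 633 and 512 CPM in wild type and at 558, 357 and 363 CPM in the mutant, and its log2 fold change was -0.32 (standard error 0.22), or -0.57 without mutant replicate 1. Mutant replicate 1 lay within the wild-type range, and the other mutant replicates lay below it. Cbr-rpl-24.2 (WBGene00026506), whose relative in yeast is a ribosome assembly factor that resembles a ribosomal protein, was at 120.2, 142 and 131 CPM in wild type and 91.7, 114 and 109 CPM in the mutant, a log2 fold change of -0.32 (standard error 0.14), or -0.24 without mutant replicate 1. Here mutant replicate 1 was the lowest library, and the genotypes did not overlap. Cbr-rpl-24.2 was counted among the ribosomal protein genes by its symbol alone. RefSeq (assembly CB4) also names Cbr-rpl-11.2, Cbr-rpl-25.2 and Cbr-rpl-24.1, whose symbols are like those of Cbr-rpl-11.1, Cbr-rpl-25.1 and Cbr-rpl-24.2. Their sequences were not compared, and whether reads are split between genes of like symbol was not tested. In that annotation Cbr-rpl-24.2 and Cbr-tars-1 each overlap a neighbouring gene. The values of Cbr-rpl-11.1, Cbr-rpl-25.1, Cbr-rpl-24.2 and Cbr-tars-1 are therefore uncertain.

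Among small-subunit genes, Cbr-rps-12 (WBGene00030667) had the largest difference and Cbr-rps-18 (WBGene00040255), a protein of the subunit head, the smallest. Cbr-rps-12 was at 1533, 1997 and 1560.5 CPM in wild type and 1126, 1014 and 1053 CPM in the mutant, a log2 fold change of -0.67 (standard error 0.15), or -0.72 without mutant replicate 1. Cbr-rps-18 was at 2456, 3201 and 2601 CPM in wild type and 2118, 1952 and 2067 CPM in the mutant, a log2 fold change of -0.43 (standard error 0.14), or -0.46 without mutant replicate 1. In both genes wild-type replicate 2 was the highest library and the genotypes did not overlap. Cbr-rps-2, at the mRNA entry channel, and Cbr-rps-4 stood at -0.61 and -0.58. Cbr-rps-6, whose relatives in other animals are phosphorylated by the ribosomal protein kinase that rsks-1 encodes in C. elegans, was at -0.54, and Cbr-rps-10, Cbr-rps-20 and Cbr-rps-13 were at -0.53, -0.48 and -0.46. Cbr-rla-1 (WBGene00040685), an acidic protein of the stalk that recruits translation factors, was at 1727, 2295 and 1851 CPM in wild type and 1515, 1215 and 1303 CPM in the mutant, a log2 fold change of -0.54 (standard error 0.16), or -0.65 without mutant replicate 1. Its genotypes did not overlap either, with mutant replicate 1 the highest mutant library.

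Wild-type replicate 2 was the highest wild-type library for 19 of 19 ribosomal protein genes, as it was for 37.8% of all tested genes. On the log2 scale it exceeded the mean of the other wild-type replicates by 0.18 to 0.39, with a median of 0.32, where the median over all genes was -0.01. The spread within wild type, as the coefficient of variation, therefore had a median of 13.2% over these genes, and within the mutant it was 8.84%, while over all tested genes these medians were 10.6% and 21.3%. When wild-type replicate 2 was left out, the median log2 fold change over all 43 members was -0.48.

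**Figure D2:**
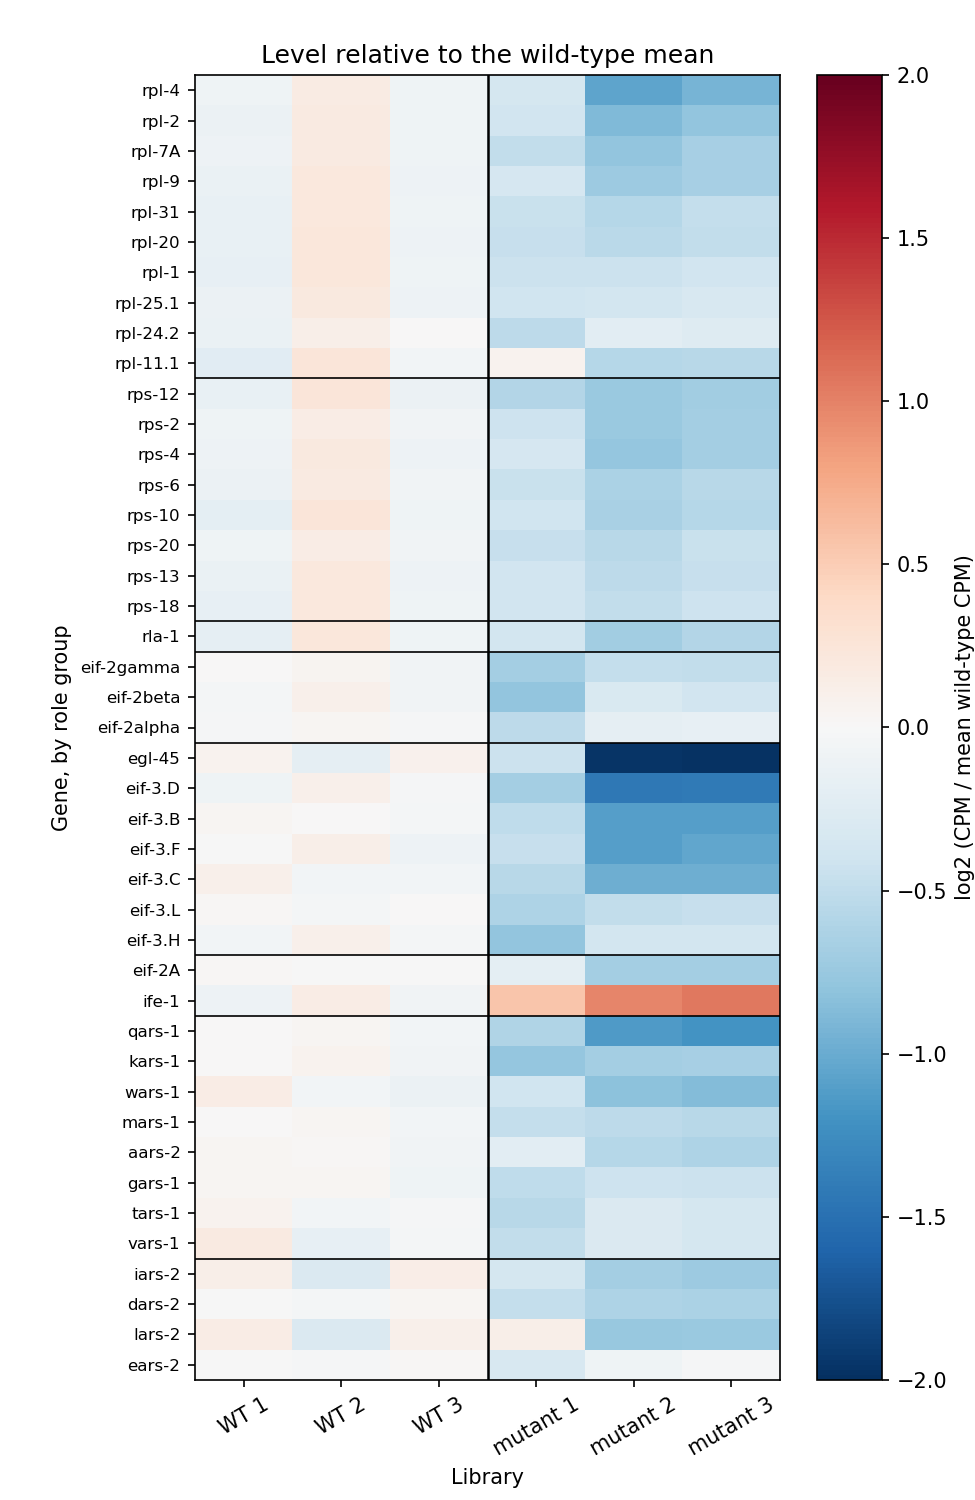
Level of each gene in each library relative to the mean of the 3 wild-type libraries, as log2 of the CPM ratio, with blue for lower and red for higher; columns are libraries and rows are genes in role order. Wild-type replicate 2 is pale red for the 19 ribosomal protein genes at the top, and Cbr-ife-1 is the row that is red in all mutant libraries.

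The eIF3 genes had the largest differences of any role group. The median log2 fold change of the 7 subunits was -0.84, from -1.26 to -0.49, or -1.08 without mutant replicate 1, and 5 were called lower, against 9.80% of all genes. Their summed level was 54.4% of wild type, or 66.8% by share of counted pairs. Mutant replicate 1 was the highest mutant library for 5 of the 7 genes and the lowest for the other pair. Over all tested genes it was highest for 44.3% and lowest for 49.6%. This split of the 7 genes was made after the values were seen, and nothing is read from it.

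In Cbr-egl-45, Cbr-eif-3.D, Cbr-eif-3.B, Cbr-eif-3.F and Cbr-eif-3.C, mutant replicate 1 was the highest mutant library. Cbr-egl-45 (WBGene00023536) encodes the large scaffold subunit of the complex and was at 450.4, 379 and 456 CPM in wild type and 319.7, 110.0 and 108 CPM in the mutant, a log2 fold change of -1.26 (standard error 0.44), or -1.98 without mutant replicate 1. Its mutant replicate 1 was nearer to wild type than to the other mutant replicates, the genotypes did not overlap, and the gene was not called. Cbr-eif-3.D (WBGene00029048), a subunit that can bind the mRNA cap in human cells, was at 337, 383 and 351 CPM in wild type and 223, 132 and 134 CPM in the mutant, a log2 fold change of -1.13 (standard error 0.23), or -1.43 without mutant replicate 1. Cbr-eif-3.B, a core scaffold subunit, was at 465, 452 and 439.9 CPM in wild type and 317, 211 and 209.8 CPM in the mutant, a log2 fold change of -0.88 (standard error 0.19), or -1.11 without mutant replicate 1. Both genes had no overlap and were called lower. Cbr-eif-3.F, and Cbr-eif-3.C, which pairs with the large scaffold subunit in the complex, stood at -0.84 and -0.82, or -1.08 and -0.98 without mutant replicate 1, and the summed level of these 5 genes was 50.7% of wild type.

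In Cbr-eif-3.L and Cbr-eif-3.H, mutant replicate 1 was instead the lowest mutant library. Cbr-eif-3.H (WBGene00026755) was at 198, 219.9 and 200.2 CPM in wild type and 119, 160.3 and 160.3 CPM in the mutant, a log2 fold change of -0.49 (standard error 0.15), or -0.37 without mutant replicate 1. Cbr-eif-3.L was at 234, 226 and 233 CPM in wild type and 150.3, 164 and 169 CPM in the mutant, a log2 fold change of -0.52 (standard error 0.11), or -0.48 without mutant replicate 1. In neither gene did the genotypes overlap with TMM scaling, though Cbr-eif-3.H overlapped with library totals, and the summed level of the pair was 70.4% of wild type. Over the 7 subunits, the log2 ratio of mutant replicate 1 to the mean of the other mutant replicates ran from -0.43 to 1.55. Over all tested genes the 5th to 95th percentile range of this ratio was -1.22 to 1.44. Of the 7 subunits only Cbr-egl-45 lay outside that range.

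**Figure D3:**
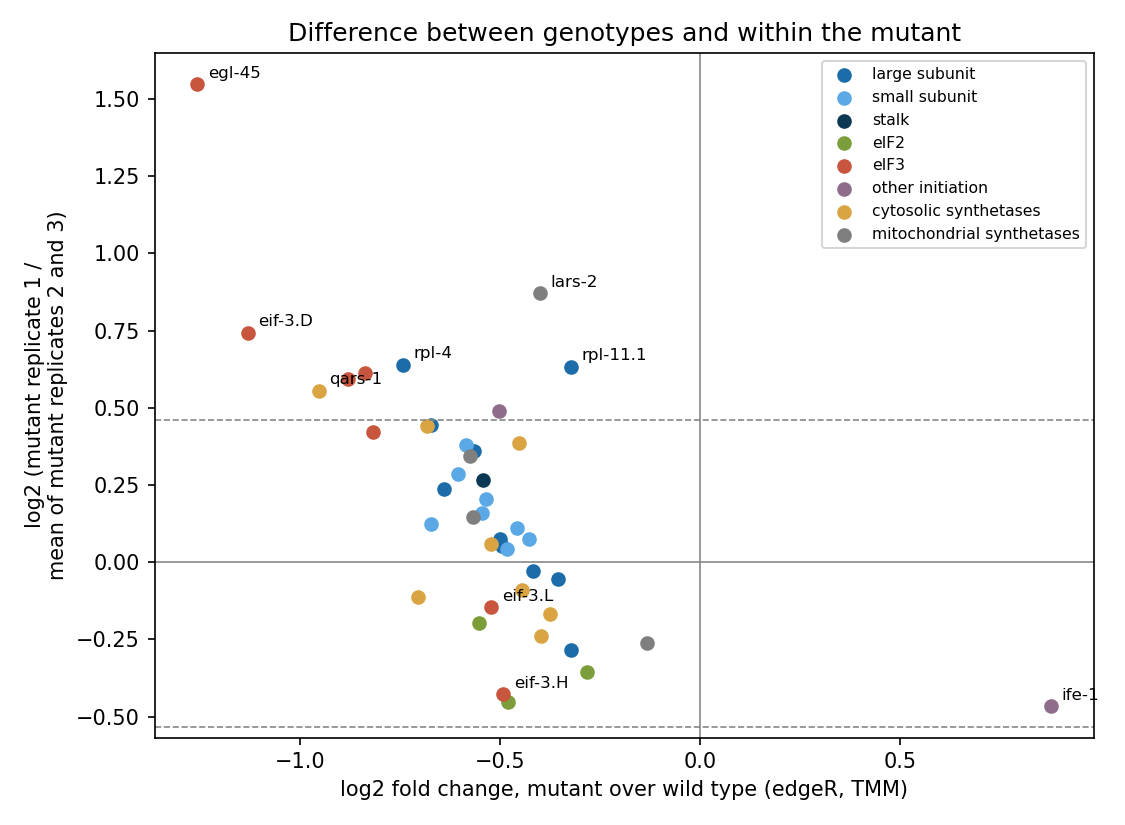
Each point is 1 of the 43 genes, with its log2 fold change between mutant and wild type on the horizontal axis and the log2 ratio of mutant replicate 1 to the mean of mutant replicates 2 and 3 on the vertical axis; the dashed lines are the 25th and 75th percentiles of that ratio over all tested genes, -0.53 and 0.46. Cbr-egl-45 stands at the upper left at -1.26 and 1.55, and Cbr-eif-3.H, from the same complex, is below zero on the vertical axis at -0.43.

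The 3 subunits of eIF2 were lower by a smaller amount than most eIF3 subunits, with a median log2 fold change of -0.48 and a summed level of 73.6% of wild type. Cbr-eif-2gamma (WBGene00026653), the subunit that binds GTP and the initiator tRNA, was at 478, 497 and 455 CPM in wild type and 296, 342 and 338 CPM in the mutant, a log2 fold change of -0.55 (standard error 0.12), or -0.50 without mutant replicate 1. Cbr-eif-2alpha (WBGene00040682), the subunit that stress kinases phosphorylate to slow initiation, was at 364, 379 and 362 CPM in wild type and 255, 325 and 328 CPM in the mutant, a log2 fold change of -0.28 (standard error 0.14), or -0.18 without mutant replicate 1. Mutant replicate 1 was the lowest library for both genes and for Cbr-eif-2beta, which contacts the factor that triggers GTP hydrolysis and stood at -0.48, and the genotypes overlapped for none of the 3 with TMM scaling. Cbr-eif-2gamma was called lower and the other subunits were not. By share of counted pairs, the summed eIF2 genes took 0.108%, 0.109% and 0.105% in wild type and 0.0766%, 0.112% and 0.108% in the mutant, so that the genotypes overlapped and mutant replicate 1 was the low library.

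Of the other initiation factors, 1 was called higher and 1 was not called. Cbr-ife-1 (WBGene00042429) encodes a form of the cap-binding protein eIF4E that in C. elegans is made in the germ line and associates with P granules, and it was the 1 member called higher. It was at 194, 229.9 and 198 CPM in wild type and 304, 409.6 and 430.0 CPM in the mutant, a log2 fold change of 0.88 (standard error 0.17), or 1.01 without mutant replicate 1. All mutant libraries lay above all wild-type libraries, and mutant replicate 1 was the nearest to wild type. Cbr-eif-2A (WBGene00026039), related to a factor that can deliver initiator tRNA without eIF2 in mammals, was at 210.4, 207 and 207 CPM in wild type and 182, 129 and 129.6 CPM in the mutant, a log2 fold change of -0.50 (standard error 0.16), or -0.69 without mutant replicate 1. It was not called, the genotypes did not overlap, and its mutant replicate 1 lay nearest to wild type.

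Germline markers were read beside Cbr-ife-1, and they differed among themselves. Of 14 germline genes with an identifier, all of them from the same published lists, 8 were called higher, against 11.7% of all tested genes, and none was called lower. Without mutant replicate 1, 8 were called higher and 5 lower, against 31.1% and 28.6% of all tested genes in that fit. Cbr-pgl-1, a component of P granules in C. elegans, was at 146, 140.4 and 158 CPM in wild type and 248, 59.5 and 61.8 CPM in the mutant, so that mutant replicate 1 lay above wild type and the other mutant replicates below it. The summed level of the list was 708 to 710.4 CPM in wild type and 1321 to 2083 CPM in the mutant. Mutant replicate 1 was the highest library for this sum. It was the highest mutant library for 11 of the 14, as it was for 44.3% of all tested genes. For Cbr-syp-2, Cbr-him-8 and Cbr-nos-1, all called higher, it was the lowest mutant library. It was also the lowest for Cbr-ife-1, and for 49.6% of all tested genes. The part of germline RNA in the level of Cbr-ife-1 was not tested.

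The 8 cytosolic synthetases had a median log2 fold change of -0.49, from -0.95 to -0.38, and a summed level of 68.3% of wild type, or 84.8% by share of counted pairs. Of these, 5 were called lower, against 9.80% of all tested genes. With library totals 1 was called lower, against 4.54%. In that scaling 4 had all mutant libraries below all wild-type libraries, against 9.66% of all genes. Cbr-qars-1 (WBGene00034482), which loads glutamine, was at 277, 282 and 264 CPM in wild type and 180.1, 125 and 119.6 CPM in the mutant, a log2 fold change of -0.95 (standard error 0.18), or -1.17 without mutant replicate 1. Cbr-kars-1 (WBGene00042783), which loads lysine, was at 432, 453 and 410.0 CPM in wild type and 251, 271 and 272 CPM in the mutant, a log2 fold change of -0.71 (standard error 0.11), or -0.68 without mutant replicate 1. In both genes the genotypes did not overlap, and in Cbr-kars-1 all mutant libraries lay close together. Cbr-kars-1, named after its values were seen, was the only member called in 14 of 15 settings, with library totals the exception. It was also the only one called both with all libraries and in each of the 6 fits with a library left out. This gene was picked for being called in this contrast, and the settings reuse the same libraries, so nothing is read from these calls. The same count was not made over all genes. The enzymes for tryptophan (Cbr-wars-1), methionine (Cbr-mars-1), alanine (Cbr-aars-2), glycine (Cbr-gars-1) and threonine (Cbr-tars-1) stood at -0.68, -0.52, -0.45, -0.45 and -0.40, and of these Cbr-wars-1, Cbr-mars-1 and Cbr-gars-1 were called lower. Cbr-vars-1 (WBGene00032507), for valine, was placed in this group by its name, and its compartment was not checked here. It had the smallest difference of the group, at 64.4, 51.1 and 55.6 CPM in wild type and 40.6, 46.7 and 44.5 CPM in the mutant, a log2 fold change of -0.38 (standard error 0.14), or -0.33 without mutant replicate 1. Its genotypes did not overlap.

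For 4 synthetases the name cytosolic does not hold, since their relatives in C. elegans work in the mitochondrion. Cbr-dars-2 (WBGene00041729), for aspartate, was at 29.8, 29.3 and 30.7 CPM in wild type and 21.6, 19.6 and 19.4 CPM in the mutant, a log2 fold change of -0.57 (standard error 0.11), or -0.63 without mutant replicate 1, and it was called lower. Cbr-iars-2 (WBGene00033207), for isoleucine, was at 95.6, 71.6 and 96.2 CPM in wild type and 68.7, 55.1 and 53.1 CPM in the mutant, also a log2 fold change of -0.57 (standard error 0.17), or -0.71 without mutant replicate 1. Neither gene overlapped between genotypes, and for Cbr-iars-2 the gap was that between wild-type replicate 2 and mutant replicate 1. Cbr-lars-2 (WBGene00032918), for leucine, was at 43.4, 32.0 and 41.9 CPM in wild type and 42.5, 23.1 and 23.3 CPM in the mutant, a log2 fold change of -0.40 (standard error 0.27), or -0.76 without mutant replicate 1. Cbr-ears-2 (WBGene00034299), for glutamate, was at 11.8, 11.7 and 12.1 CPM in wild type and 9.55, 11.2 and 11.7 CPM in the mutant, a log2 fold change of -0.13 (standard error 0.14), or -0.06 without mutant replicate 1. Both genes overlapped, Cbr-lars-2 through mutant replicate 1 at wild-type level and Cbr-ears-2 through mutant replicate 3.

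Just inside the lists for sy5216, the smallest differences were those of Cbr-rpl-25.1 (-0.36) and Cbr-vars-1 (-0.38). Outside them, among the members named for gu163 only, the values were -0.40 for Cbr-lars-2, -0.32 for Cbr-rpl-24.2 and Cbr-rpl-11.1, -0.28 for Cbr-eif-2alpha and -0.13 for Cbr-ears-2. None of these 7 genes was called here, where 9.80% of all tested genes were called lower and 11.7% higher. Members with larger differences, such as Cbr-egl-45 (-1.26) and Cbr-rpl-9 (-0.56), were not called either. The gu163 list leaves out genes called in sy5216, so nothing is read from the lack of a call.

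**Figure D4:**
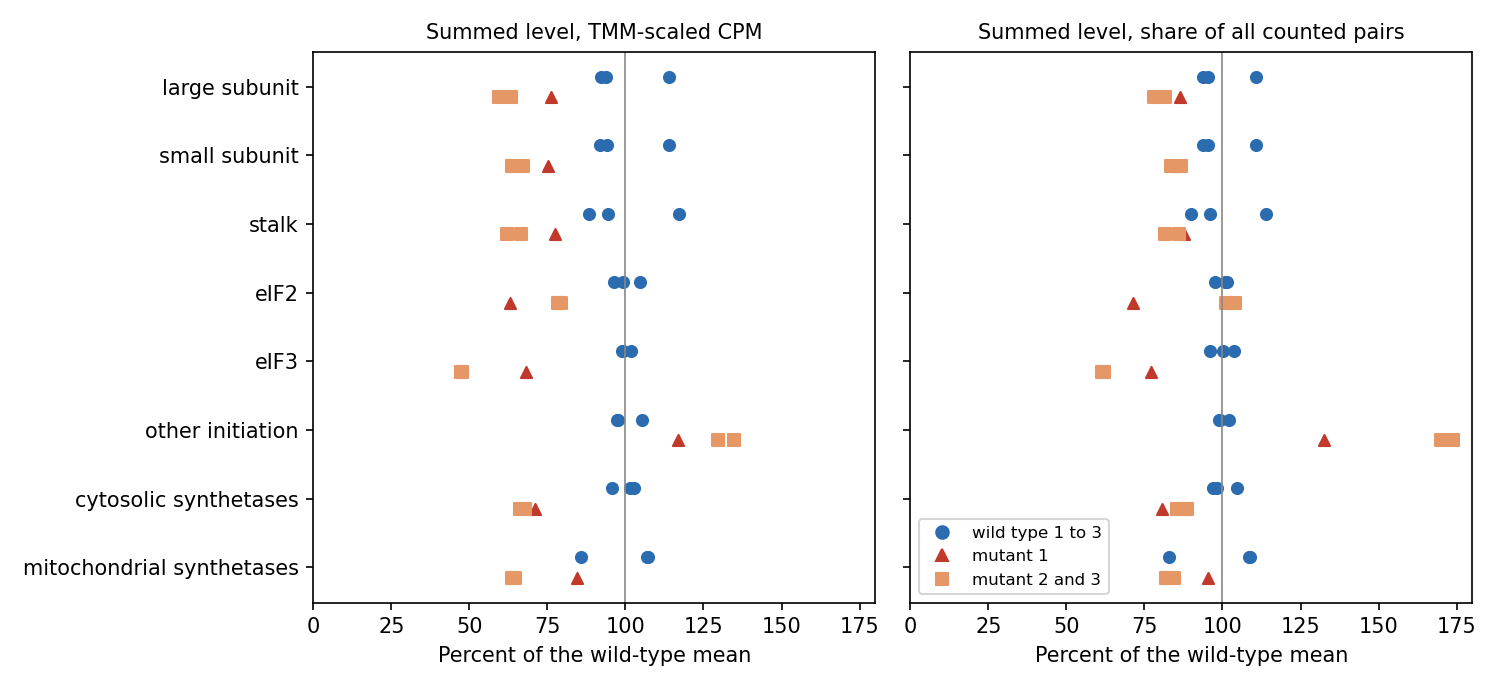
Summed level of each role group in each library as a percent of its wild-type mean, from TMM-scaled CPM on the left and from shares of all counted pairs on the right, with wild type as circles, mutant replicate 1 as triangles and mutant replicates 2 and 3 as squares. The eIF3 sum is the lowest group in the mutant in both panels, at 54.4% and 66.8% of wild type on average. For eIF2 and for the mitochondrial synthetases the genotypes overlap in the right panel only.

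Mutant replicates 2 and 3 agreed closely for every member, with a log2 ratio of at most 0.12 in size, and mutant replicate 1 lay outside their range for 41 of 43 members. It was the highest mutant library for 28 members and the lowest for 13, where it was highest for 44.3% and lowest for 49.6% of all tested genes. Its log2 ratio to the mean of the other mutant replicates had a median of 0.15 over the members, with all genes at a median of -0.05 and a range from the 5th to the 95th percentile of -1.22 to 1.44. Among the ribosomal protein genes it was highest for 15 and lowest for 2 of 19, and it was lowest for all 3 eIF2 subunits. Cbr-egl-45 at 1.55 was the only member outside the 5th to 95th percentile range. The median log2 fold change of the members without mutant replicate 1 was -0.61.

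Lists of genes that act beside these families were taken from the same published lists, so they too hold genes picked for a change in a mutant. Of 12 genes matched to the list of ribosome biogenesis, 6 were called lower and 1 higher, against 9.80% and 11.7% of all tested genes, with a median log2 fold change of -0.42. Without mutant replicate 1, 11 were called lower and 1 higher, against 28.6% and 31.1%. Among them were Cbr-nol-56 (-0.79), a core protein of the particles that methylate ribosomal RNA, Cbr-nsun-1 (-0.74), which methylates it at a base, and Cbr-fib-1 (-0.91), the nucleolar methyltransferase fibrillarin. Cbr-nol-9, a kinase that acts in processing of the ribosomal RNA precursor in other species, was the 1 called higher, at 0.61. Cbr-nop-1 was matched by its name alone, since in C. elegans nop-1 acts in the early embryo. Of translation control genes, Cbr-pek-1, a kinase that phosphorylates eIF2 alpha under stress of the endoplasmic reticulum, was called higher at 0.73, and Cbr-rsks-1, the ribosomal protein kinase, was at -0.34 and was not called.

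The mitochondrial ribosome is a separate machine. Of 52 genes for its proteins in these lists, 27 were called lower, against 9.80% of all tested genes, and none was called higher, against 11.7%, with a median log2 fold change of -0.52. Without mutant replicate 1, 39 were called lower and 4 higher, against 28.6% and 31.1%. Cbr-mrpl-9 (-1.29) and Cbr-mrpl-44 (-1.15) had the smallest p of these genes. The values of Cbr-mrpl-21 (0.59), Cbr-mrpl-10 (0.44), Cbr-mrps-28 (0.21) and Cbr-mrpl-17 (0.008) were positive, and none was called with all libraries. Cbr-mrpl-21 had low levels, between 2.28 and 4.85 CPM. The sum over the list was 3455 to 3820.2 CPM in wild type and 2149.98 to 2743 CPM in the mutant. Its lowest library was mutant replicate 1, whereas mutant replicate 1 was the highest mutant library for the summed cytosolic ribosomal proteins.

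Markers of other tissues in these whole animals were counted as well, against 9.80% of all tested genes called lower and 11.7% called higher. Of 3 muscle genes 1 was called lower, with a summed level of 5443 to 6025 CPM in wild type and 1611 to 3943 CPM in the mutant. Of 4 intestine genes 2 were called lower, with 545 to 623 CPM in wild type and 322 to 508 CPM in the mutant. Of 10 molting and epidermis genes 5 were called lower and 1 higher, with 4787 to 5509 CPM in wild type and 1999 to 3021 CPM in the mutant. Without mutant replicate 1, 3 of 3, 4 of 4 and 8 of 10 of these genes were called lower, against 28.6% of all tested genes, and 1 of the molting and epidermis genes was called higher. No listed marker was at 0, and mutant replicate 1 was the mutant library nearest to wild type in each of these 3 sums. The part of tissue makeup in the levels of the translation genes was not tested.

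Genes next to the members on the chromosome were described as well. By RefSeq gene order, 1 of 86 neighbour positions held another gene of these families, Cbr-rpl-24.1 beside Cbr-rps-10, so no member lay beside another member. Of 17 neighbours with an identifier and a test, 11 were called lower and 2 higher, against 9.80% and 11.7% of all tested genes, and 4 were not called, and these too have identifiers only because a mutant changed them. Cbr-rpl-9 lay beside Cbr-lpd-7 (-0.53), which acts in ribosome biogenesis, and Cbr-eif-2alpha beside Cbr-phb-1 (-1.11), which encodes a prohibitin of the mitochondrial inner membrane. Cbr-ife-1, higher in the mutant, lay beside CBG24278 at -0.65.

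RefSeq names 131 genes of these families in C. briggsae, and 37 of them were paired with an identifier of the count table. For the ribosomal protein families the pairing reached 19 of 76 genes and for the elongation factors 0 of 3. The 57 other ribosomal protein genes and the elongation factors were not analysed here, so the values above hold for the listed genes and not for the families as a whole.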

How the data were processed

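RNA of whole L3 hermaphrodites was sequenced from 3 wild-type and 3 Cbr-ivph-3(sy5216) replicates. The authors used Galaxy, with MultiQC for quality, RNA STAR for alignment to WormBase release WS279 and featureCounts, set as reverse-stranded, for the counting of read pairs. The versions are not given in the sources used here, and the kit named in the labels does not mark strand. The deposited values are raw counts per gene.

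Members and gene lists were chosen with earlier results of these data known. Symbols were paired with identifiers through the published gene lists (3900 identifiers), whose copies are incomplete for sy5216. RefSeq gave another name for 5 members.

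Counts were analysed in R 4.3.3 with edgeR 4.0.16 (TMM, filterByExpr, robust quasi-likelihood fit, genotype as the only term, Benjamini-Hochberg adjustment over 14241 genes). The standard error is the size of the log2 fold change over the square root of F. Scripts were tested on simulated data. Alternatives were other scalings and filters, DESeq2 1.42.0, limma-voom (limma 3.58.1), a replicate block and each library left out. Values per library are printed for the largest and smallest change in each role group, overlapping or opposite genes and those named for another mutant. The whole families and levels per length could not be run.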

Additional observations from a re-analysis of the deposited data

How the results depend on the processing

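All members kept their direction under every alternative except library totals, where Cbr-rpl-24.2 stood at 0.0024, Cbr-eif-2alpha at 0.043 and Cbr-ears-2 at 0.19 on the log2 scale, since that scaling shifts the median of all genes to 0.37. The number of members called lower was 22, against 9.80% of all tested genes. It was 14 with upper-quartile scaling, 5 with library totals, 37 with DESeq2 and 9 with a replicate block. The shares of all genes called lower in those fits were 7.53%, 4.54%, 12.1% and 7.72%. With DESeq2 size factors, no low-count filter, at least 10 counts in every library and limma-voom, 20, 18, 18 and 23 members were called lower. All genes called lower in those fits were 1467, 1331, 1261 and 1429, of 14241, 20256, 13199 and 14241 tested. Leaving a library out gave 1 to 40 members. The 40 came without mutant replicate 1, against 28.6% of all genes, and 1 or 2 without any other library, against 4.27% to 4.88%. With library totals the 5 were 4 eIF3 genes and 1 cytosolic synthetase, and with the block no ribosomal protein gene was called. Over all genes, the 3062 calls became 1240 to 8644 with a library left out, the 1667 higher calls 605 to 4497 and the 1395 lower calls 625 to 4147, and library totals gave 3297 higher and 646 lower calls. The median log2 fold change of the members moved from -0.52 to -0.21 with library totals. The cause was not tested where the construction of the alternative does not show it. Across genes, wild-type and mutant libraries of the same number deviated from their group means with correlations of 0.152, 0.174 and -0.067, so they share only a number, and the block is an alternative alone. Group sums as shares of counted pairs moved by more than the spread between replicates in 7 of 9 cases. The alternatives planned for whole families and for levels per length were not run, because identifiers and lengths were not at hand for them. The lowest count of a member in any library was 262, and the effect of depth on the calls was not tested.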
